A study of Mus musculus with 9 samples.

Results

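The genes described here are the conjugating enzymes of the mouse colon: the cytosolic glutathione S-transferases (Gst), the microsomal glutathione S-transferases (Mgst), the UDP-glycosyltransferases (Ugt) and the sulfotransferases (Sult). They were taken by a rule on gene symbols that used no measured value but was chosen with earlier results of these data known. It gave 39 probes of 38 genes out of 26423 probes analysed. These were 18 Gst, 3 Mgst, 5 Ugt and 12 Sult genes, with 2 probes for Sult4a1 and 1 for every other gene. The Ugt1 genes and Gsta1 were not analysed here. RNA was taken from colons of female BALB/c mice, of an age the labels do not give, in 3 groups of 3 arrays. Vanillin mice had the course of azoxymethane (AOM) and dextran sodium sulfate (DSS) described next, together with 100 mg/kg of vanillin by mouth for 91 days. Sham mice had the same course without vanillin: an intraperitoneal injection of the carcinogen AOM at 12.5 mg/kg on day 1, 2.5% DSS in the water for 5 days from day 8, 16 days of plain water, and 3 additional cycles. Mock mice were untreated. Other vanillin amounts that the study gave were not analysed here. Nothing in the labels ties the 3 arrays of a group to different mice. The p-values therefore reflect the spread among arrays, and that spread may be technical. The number of arrays limits the precision of every value.

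Conjugating enzymes attach a polar group to a reactive or fat-soluble molecule, which makes it less reactive and easier to export. Glutathione S-transferases use the tripeptide glutathione, UDP-glucuronosyltransferases use glucuronic acid from UDP-glucuronate, and sulfotransferases use sulfate from the donor 3'-phosphoadenosine-5'-phosphosulfate (PAPS). The gut lining carries these enzymes against food compounds, bile acids and carcinogens. Vanillin is itself a phenol, and phenols are typical substrates of glucuronidation and sulfation.

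Values are probe intensities on a linear scale, and changes are differences of log2(intensity + 16) with their standard error (SE). A change of 1 is close to a doubling for a bright probe and more than a doubling for a dim one. A probe was called where the adjusted p of limma's moderated test, over all 26423 probes, was under 0.05. Intensities of different probes were not set against each other. The mean intensity of a member over the arrays ran between 6.5 and 64458, and 3 members stayed under 50 on every array. Values near 65509 lie at the top of the range, where differences cannot be read in full. The arrays of a group correlated at 0.995 to 0.998 over all probes, and arrays of different groups at 0.926 to 0.973.

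Markers of several tissues differed between the groups. The summed intensity of 11 squamous epithelium markers was 241708 to 297005 in Vanillin, 26666 to 27908 in Sham and 473756 to 480533 in Mock. Several of these markers, such as Krt10 and Lor, were near the top of the range in Vanillin and Mock. The low end in Vanillin goes with Krt14, at 11506 in Vanillin 3 against 64969 and 63608 in Vanillin 1 and 2. The sum of 8 adipocyte markers was 92920 to 96333 in Vanillin, 3264 to 3381 in Sham and 103979 to 105866 in Mock. Sebaceous gland markers (6 of 6 measured) summed to 79778 to 83007 in Vanillin, 17430 to 18711 in Sham and 82919 to 86882 in Mock, lowest in Sham and overlapping between Vanillin and Mock, where Scd1, at the top of the range, makes up most of the sum. No defining marker was at 0, but 3 squamous, 1 adipocyte and 2 sebaceous markers averaged under 50 in Sham. Of the colon epithelium markers, 10 of 10 were measured and none averaged under 50 in any group. Their sums overlapped, at 275130 to 287946 in Vanillin, 282078 to 301163 in Sham and 280661 to 290518 in Mock, but most of each sum is Lgals4, Epcam and Phgr1, near the top of the range, so the overlap does not show that the epithelium was alike. Of the 10, 4 rose (40%, against 36.5% of all probes) and 2 fell (20%, against 23.2%) in Sham minus Mock. None rose (15.7% of all probes) and 6 fell (60%, against 32.2%) in Vanillin minus Sham. Vanillin minus Mock had 3 higher (30%, against 24.5%) and 3 lower (30%, against 26.2%). Their changes in Sham minus Mock ran between -2.98 for the chloride exchanger Slc26a3 and 3.13 for the intestinal factor Cdx2. The sum of 6 goblet cell markers was 240169 to 248951 in Vanillin, 317253 to 324489 in Sham and 254393 to 258622 in Mock. Smooth muscle markers (5 of 6 measured) summed to 46439 to 49726 in Vanillin, 40278 to 43016 in Sham and 93183 to 94576 in Mock. Most of each sum is Acta2, which was at the top of the range in Mock. Neutrophil markers summed to 112884 to 119229 in Vanillin, 64401 to 66719 in Sham and 17509 to 19201 in Mock. Of these 6 markers, 5 rose (83.3%) in Sham minus Mock (36.5% of all probes) and in Vanillin minus Mock (24.5% of all probes). The other, S100a8, fell in both (16.7%, against 23.2% and 26.2% of all probes). Its signal was low, averaging 75.1 in Vanillin, 76.0 in Sham and 194 in Mock. Skeletal muscle markers (3 of 5 measured) were lowest in Sham (1535 to 1620, against 73452 to 78054 in Mock), and mast cell markers (4 of 5 measured) were lowest in Mock (37562 to 40152 in Sham, against 5909 to 6450 in Mock). The part of these tissue differences in the results was not tested. In bulk tissue, fewer cells of a type and less RNA per cell cannot be told apart.

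**Figure D1:**
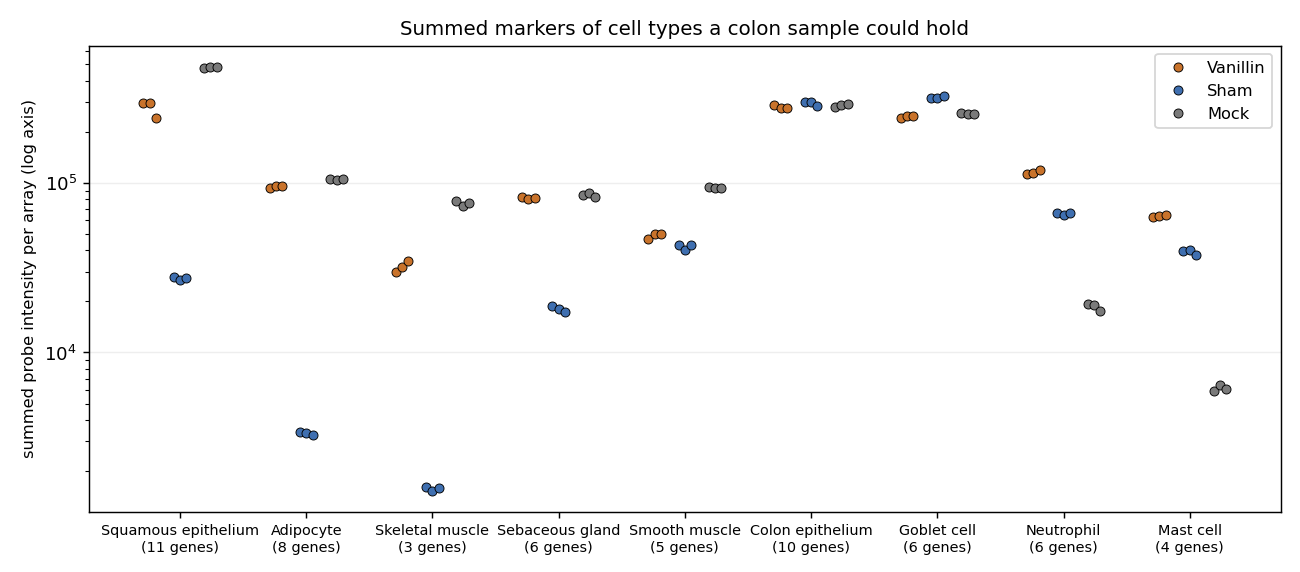
Summed intensity of each marker list (log axis) in the 9 arrays, with 1 point per array and the groups Vanillin, Sham and Mock from left to right. Squamous epithelium, adipocyte and sebaceous gland sums were lowest in all 3 Sham arrays and the colon epithelium sums, set mostly by 3 probes near the top of the range, overlapped.

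After the AOM/DSS course, members fell more often than they rose. In Sham minus Mock, 11 members rose (28.2% of the 39, against 36.5% of all probes) and 17 fell (43.6%, against 23.2% of all probes). The 28 called were 71.8% of the members, with 59.7% of all probes called. The median change was -0.14 over the members and 0.10 over all probes, and the arrays of the groups did not overlap for 30 members (67.1% of all probes). By enzyme type, 6 Gst probes rose and 8 fell, 1 Mgst rose and 1 fell, 2 Ugt rose and 1 fell, and 2 Sult probes rose and 7 fell.

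With vanillin, members lay mostly below their Sham level. In Vanillin minus Sham, 8 members rose (20.5%, against 15.7% of all probes) and 21 fell (53.8%, against 32.2% of all probes). The 29 called were 74.4% of the members, with 47.9% of all probes called. The median change was -0.27 over the members and -0.09 over all probes, and the arrays did not overlap for 31 members (56.3% of all probes). By enzyme type, 3 Gst probes rose and 11 fell, 1 Mgst rose and 2 fell, no Ugt rose and 2 fell, and 4 Sult probes rose and 6 fell.

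Against untreated colons, members with vanillin were lower more often than higher. In Vanillin minus Mock, 6 members rose (15.4%, against 24.5% of all probes) and 20 fell (51.3%, against 26.2% of all probes). The 26 called were 66.7% of the members, with 50.7% of all probes called, and the arrays did not overlap for 28 members (60.4% of all probes). The median change was -0.20 over the members and -0.002 over all probes. By enzyme type, 4 Gst probes rose and 10 fell, 1 Mgst rose and none fell, 1 Ugt rose and 2 fell, and no Sult probe rose while 8 fell.

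Dim probes were called less often, so the counts were also taken over the 31 members among the 18496 probes outside the dimmest 30%. In Sham minus Mock, 25 of these members were called (80.6%, against 71.3% of the probes), with 10 higher (32.3%, against 44.8%) and 15 lower (48.4%, against 26.5%). In Vanillin minus Sham, 26 were called (83.9%, against 59.2%), with 6 higher (19.4%, against 19.2%) and 20 lower (64.5%, against 39.9%). In Vanillin minus Mock, 25 were called (80.6%, against 61.7%), with 7 higher (22.6%, against 31.2%) and 18 lower (58.1%, against 30.4%). In each comparison the share of members called lower stood above that of all probes. The comparisons share arrays, so their values stand side by side and are not independent of each other.

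**Figure D2:**
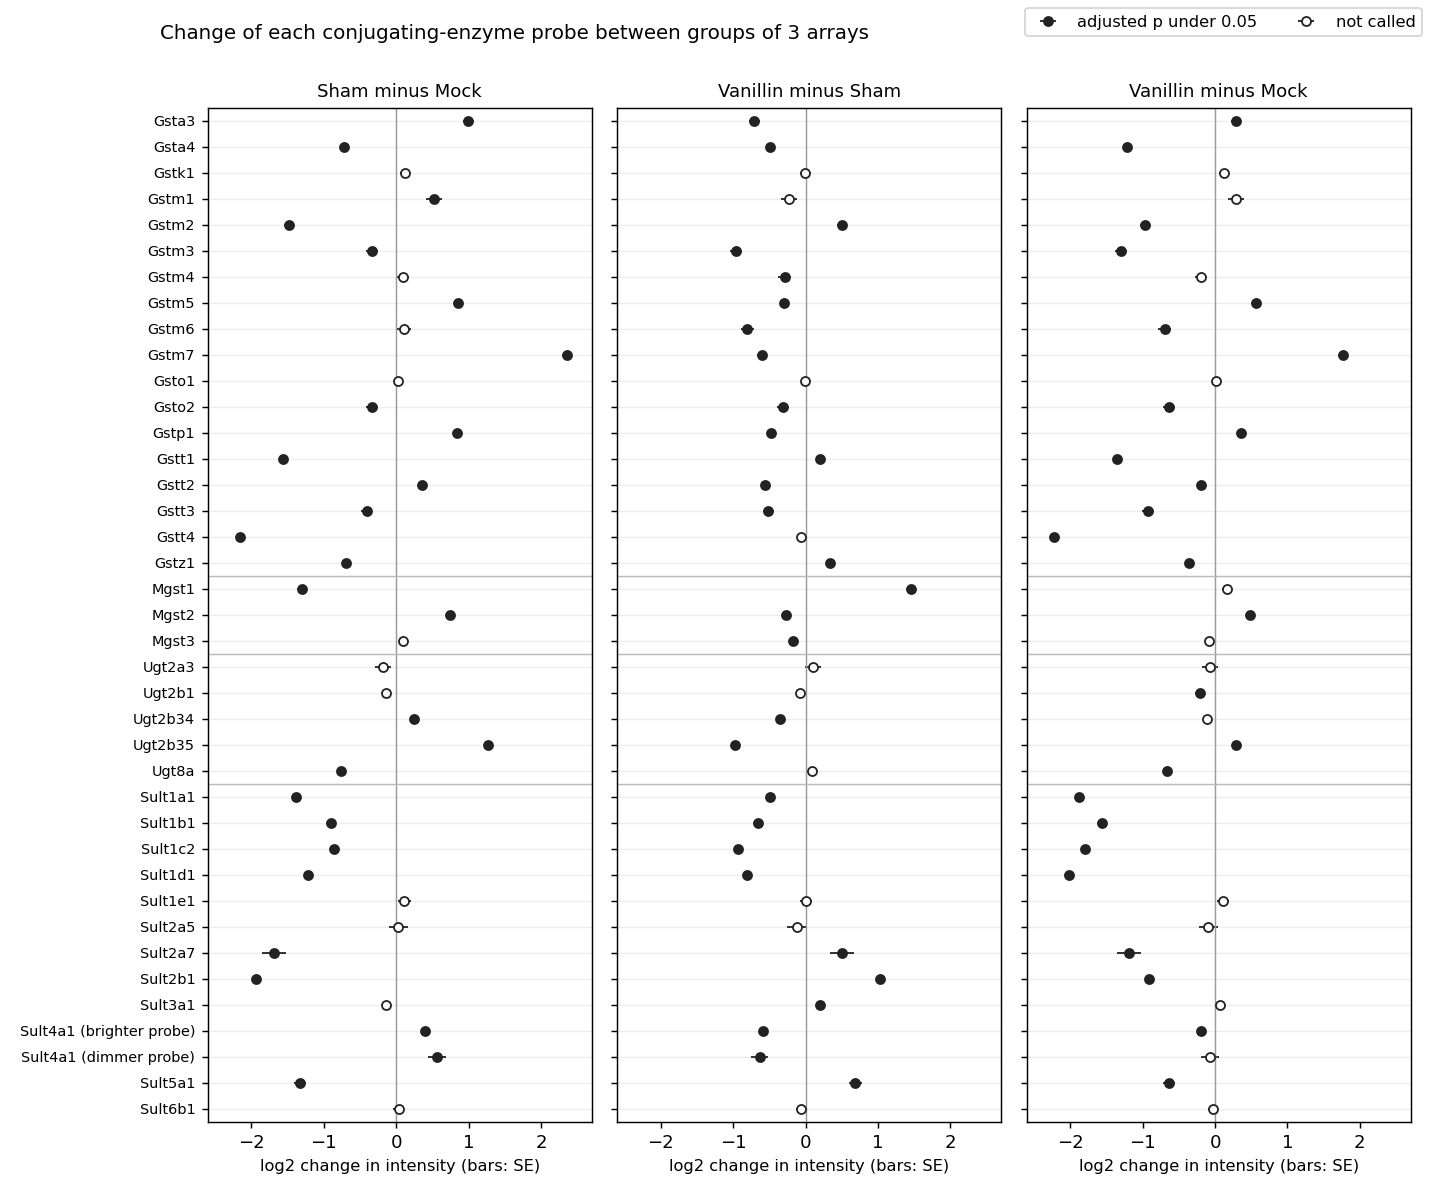
Log2 change of each of the 39 probes in the panels Sham minus Mock, Vanillin minus Sham, and lastly Vanillin minus Mock, with bars for the SE and filled points at an adjusted p under 0.05. The 4 Sult1 probes that were called lie left of 0 in every comparison, and Sult2b1 and Mgst1 lie left of 0 in Sham minus Mock and right of 0 in Vanillin minus Sham.

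The stretch just before 1 annotated transcription start per gene was available from RefSeq (GRCm38.p6) for 34 of the 38 genes. For some genes it reaches into the annotated gene: the Gsta3 stretch lies partly and the Sult1a1 stretch wholly inside it. Each 250-base stretch was searched on both strands for 4 short motifs: the antioxidant response element core TGACNNNGC, bound by NRF2, the xenobiotic response element core GCGTG, bound by the aryl hydrocarbon receptor, the HNF1 half-site GTTAAT, and the TATA box TATAAA. The antioxidant core was in 3 of the 34 (8.82%, against 10.1% of 27025 genes), the xenobiotic core in 6 (17.6%, against 28.3%), the HNF1 half-site in 5 (14.7%, against 6.54%) and the TATA box in 3 (8.82%, against 13%). The 4 stretches shown include those of the 3 genes with an antioxidant core, Gsta3, Gstm5 and Mgst1, which belong to separate enzyme classes. Of these, Gsta3 and Gstm5 rose in Sham minus Mock and fell in Vanillin minus Sham, while Mgst1 fell and then rose. The other stretch is that of Sult1d1, the sulfotransferase with the largest decrease in Vanillin minus Mock. All stretches are written 5' to 3' on the gene's strand, with motif matches in capitals.
Gsta3 chr1:21240335-21240584 (plus strand): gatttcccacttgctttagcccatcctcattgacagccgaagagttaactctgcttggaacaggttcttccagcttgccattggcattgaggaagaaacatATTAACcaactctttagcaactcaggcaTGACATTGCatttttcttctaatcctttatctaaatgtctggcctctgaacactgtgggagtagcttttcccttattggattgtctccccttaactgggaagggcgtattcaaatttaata
Gstm5 chr3:107895604-107895853 (plus strand): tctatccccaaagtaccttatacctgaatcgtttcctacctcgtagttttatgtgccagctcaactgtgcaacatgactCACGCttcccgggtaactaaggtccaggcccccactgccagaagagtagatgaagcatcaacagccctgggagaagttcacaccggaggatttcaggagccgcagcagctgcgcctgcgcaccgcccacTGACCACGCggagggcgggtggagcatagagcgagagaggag
Mgst1 chr6:138140277-138140526 (plus strand): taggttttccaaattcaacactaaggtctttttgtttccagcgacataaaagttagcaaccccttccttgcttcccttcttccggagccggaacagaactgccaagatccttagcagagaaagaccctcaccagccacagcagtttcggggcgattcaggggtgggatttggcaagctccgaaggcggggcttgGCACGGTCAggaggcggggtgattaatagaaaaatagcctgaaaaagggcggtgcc
Sult1d1 chr5:87569007-87569256 (minus strand): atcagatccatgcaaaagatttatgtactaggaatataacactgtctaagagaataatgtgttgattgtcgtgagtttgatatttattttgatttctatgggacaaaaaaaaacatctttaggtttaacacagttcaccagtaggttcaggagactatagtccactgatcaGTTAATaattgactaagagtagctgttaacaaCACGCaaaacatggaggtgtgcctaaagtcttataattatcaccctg
In Gsta3 the capitals mark an HNF1 half-site on the reverse strand and, downstream of it, an antioxidant core. In Gstm5 the antioxidant core overlaps a xenobiotic core read on the reverse strand, and another xenobiotic core lies upstream. Mgst1 has its antioxidant core on the reverse strand, and Sult1d1 has an HNF1 half-site followed by a xenobiotic core on the reverse strand. A match is a string of letters and no evidence of binding.

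The Sult1 sulfotransferases were lowest with vanillin. Of the 5 Sult1 probes, 4 fell (80%) and 1 was not called in each comparison. Among all probes, 23.2% fell in Sham minus Mock, 32.2% in Vanillin minus Sham and 26.2% in Vanillin minus Mock. The median change of the 5 was -0.90 in Sham minus Mock, -0.66 in Vanillin minus Sham and -1.80 in Vanillin minus Mock. Sult1a1, the main phenol sulfotransferase, had intensities of 5199, 5339 and 4918 in Vanillin, 7455, 7366 and 6964 in Sham and 18384, 19925 and 18539 in Mock. Every Vanillin array lay below every Sham array, and every Sham array below every Mock array. Sult1a1 fell by 1.38 (SE 0.056, adjusted p = 3.84e-08) in Sham minus Mock, fell by 0.49 (SE 0.056, adjusted p = 0.000114) in Vanillin minus Sham and fell by 1.88 (SE 0.056, adjusted p = 1.4e-08) in Vanillin minus Mock. Sult1b1, which sulfates thyroid hormones and phenols, had 245, 266 and 291 in Vanillin, 452, 429 and 410.1 in Sham and 809, 802 and 844 in Mock. It fell by 0.90 (SE 0.068, adjusted p = 2.96e-06) in Sham minus Mock, fell by 0.66 (SE 0.068, adjusted p = 6.32e-05) in Vanillin minus Sham and fell by 1.56 (SE 0.068, adjusted p = 1.48e-07) in Vanillin minus Mock, again without overlap between groups.

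Sult1c2 and Sult1d1 had the same order of groups. Sult1c2, a phenol sulfotransferase, had intensities of 919, 922 and 881 in Vanillin, 1838, 1712 and 1719 in Sham and 3167, 3290.1 and 3116 in Mock. It fell by 0.86 (SE 0.05, adjusted p = 4.94e-07) in Sham minus Mock, fell by 0.94 (SE 0.05, adjusted p = 7.6e-07) in Vanillin minus Sham and fell by 1.80 (SE 0.05, adjusted p = 9.35e-09) in Vanillin minus Mock. Sult1d1, which sulfates catecholamines in the mouse, had 772, 764 and 810.0 in Vanillin, 1418, 1430.3 and 1306 in Sham and 3101, 3416 and 3175 in Mock. The Vanillin arrays were the lowest and the Mock arrays the highest. The change of Sult1d1 was -1.21 (SE 0.058, adjusted p = 1.33e-07) in Sham minus Mock, -0.81 (SE 0.058, adjusted p = 6.55e-06) in Vanillin minus Sham and -2.02 (SE 0.058, adjusted p = 1.19e-08) in Vanillin minus Mock. Sult1e1, the estrogen sulfotransferase, gave a dim signal of 6.67, 8.89 and 5.78 in Vanillin, 7.89, 6.67 and 6.67 in Sham and 3.56, 8.06 and 4.56 in Mock, with overlapping arrays and no call in any comparison. Without Mock 2, whose value was the highest of its group, it was called higher in Sham minus Mock (adjusted p = 0.0409, in a range of 0.0409 to 0.631) and in Vanillin minus Mock (0.0486, in a range of 0.022 to 0.645). Some colon epithelium markers had the order of the 4 called genes: Slc26a3 averaged 1769 ± 218 in Vanillin, 2478 ± 86.9 in Sham and 19645 ± 1169 in Mock, and carbonic anhydrase Car1 averaged 4500.3 ± 648 in Vanillin, 7566 ± 804 in Sham and 19539 ± 959 in Mock (SD, n = 3 each). The hepatocyte marker Ttr did too, at 1104 ± 44.6 in Vanillin, 2387 ± 211 in Sham and 3072 ± 53.1 in Mock. Of the other hepatocyte markers measured, Cps1 and Apoa1 averaged highest in Sham and Alb was not called. Fgb, a dim probe, averaged lowest in Sham, at 20.72 in Vanillin, 14.48 in Sham and 23.35 in Mock. Cdx1, Cdx2, Vil1 and Cdh17 of the colon epithelium list instead rose in Sham minus Mock and averaged highest in Sham. The part of these cell types in the result was not tested.

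**Figure D3:**
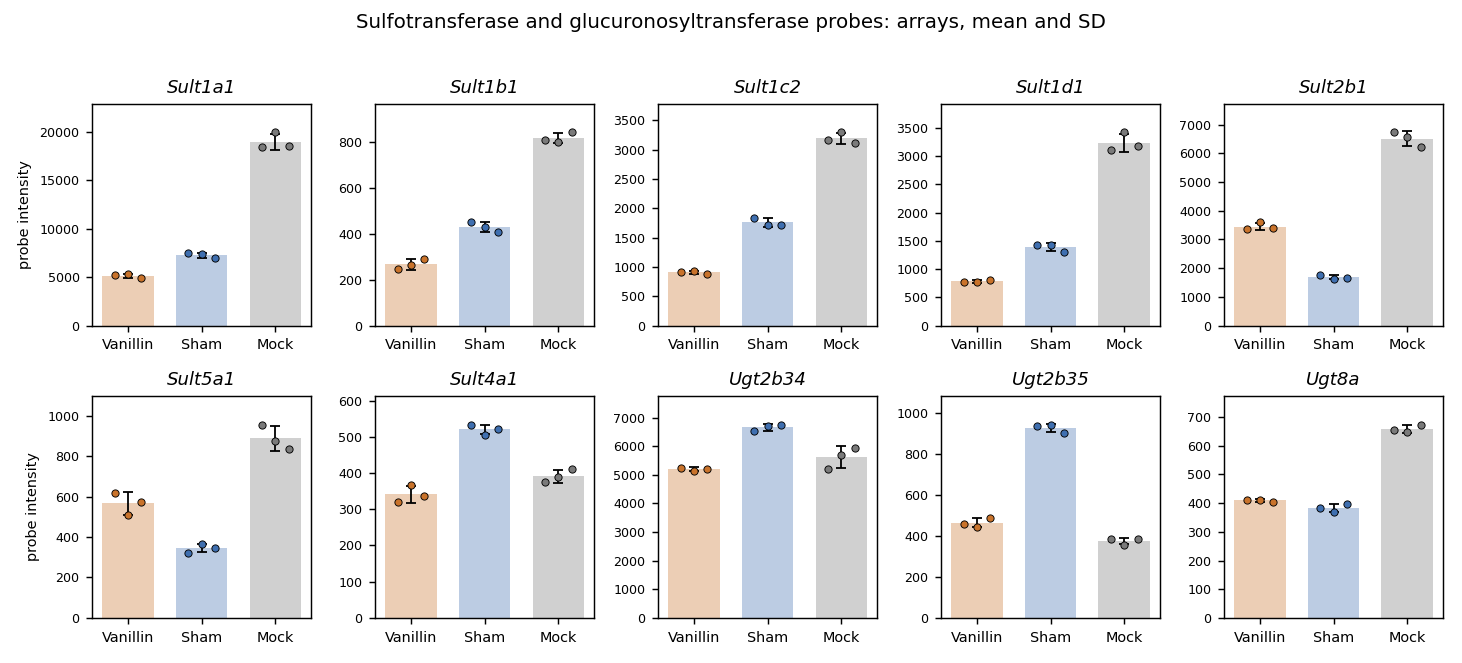
Probe intensity of sulfotransferases and UDP-glycosyltransferases in each array (points), with the group mean (bar) and SD (error bar) for Vanillin, Sham and Mock from left to right. The 4 Sult1 panels step up between Vanillin, Sham and Mock, whereas Sult2b1 and Sult5a1 were lowest in Sham.

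Other sulfotransferases were lowest in Sham. Sult2b1, which sulfates cholesterol and is known for its part in skin barrier formation, had intensities of 3354, 3593 and 3393 in Vanillin, 1762, 1618 and 1666 in Sham and 6726, 6584 and 6213 in Mock. It fell by 1.94 (SE 0.055, adjusted p = 3.39e-09) in Sham minus Mock, rose by 1.03 (SE 0.055, adjusted p = 8.87e-07) in Vanillin minus Sham and fell by 0.91 (SE 0.055, adjusted p = 1.28e-06) in Vanillin minus Mock. Vanillin arrays thus lay between the other groups. Sult5a1, a less studied member, had 620.5, 509 and 574 in Vanillin, 323, 365 and 348 in Sham and 956, 874 and 836 in Mock. It fell by 1.32 (SE 0.084, adjusted p = 9.69e-07) in Sham minus Mock, rose by 0.69 (SE 0.084, adjusted p = 0.000187) in Vanillin minus Sham and fell by 0.64 (SE 0.084, adjusted p = 0.000221) in Vanillin minus Mock. The squamous marker sum showed the same order of groups, with 241708 to 297005 in Vanillin, 26666 to 27908 in Sham and 473756 to 480533 in Mock. Of its 11 markers, some at the top of the range, 11 fell in Sham minus Mock (100%, against 23.2% of all probes). In Vanillin minus Sham 10 rose (90.9%, against 15.7%), and in Vanillin minus Mock 8 fell (72.7%, against 26.2%). The adipocyte, skeletal muscle and smooth muscle sums were likewise lowest in Sham and highest in Mock. The part of these markers in the result was not tested.

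Sult2a7, of the family that sulfates steroids and bile acids, gave a low signal of 82, 75.7 and 69.4 in Vanillin, 55, 48.2 and 43.2 in Sham and 138, 226 and 226 in Mock. Mock arrays were the highest and Sham arrays the lowest. The probe fell by 1.69 (SE 0.17, adjusted p = 1.93e-05) in Sham minus Mock and fell by 1.19 (SE 0.17, adjusted p = 0.000303) in Vanillin minus Mock. It rose by 0.50 (SE 0.17, adjusted p = 0.0336) in Vanillin minus Sham, but with the replicate number as a block the adjusted p was 0.0625, with a range of 0.00126 to 0.1 over the alternatives. Leaving out Sham 2 (0.0787), Sham 3 (0.1), Vanillin 1 (0.0888), Vanillin 2 (0.0753) or Vanillin 3 (0.0545) also ended that call. Sult4a1, a brain member with no settled activity, had 321, 367 and 336 in Vanillin, 534, 506 and 522 in Sham and 375, 388 and 410.2 in Mock on its brighter probe. Sham arrays were the highest: this probe rose by 0.40 (SE 0.06, adjusted p = 0.000356) in Sham minus Mock and fell by 0.59 (SE 0.06, adjusted p = 6.33e-05) in Vanillin minus Sham. It fell by 0.19 (SE 0.06, adjusted p = 0.0278) in Vanillin minus Mock, a call that was lost without Mock 2 (adjusted p = 0.0606), Mock 3 (0.104), Vanillin 1 (0.0786) or Vanillin 3 (0.0725), in a range of 0.0106 to 0.104. The dimmer Sult4a1 probe also rose by 0.56 in Sham minus Mock and fell by 0.63 in Vanillin minus Sham, and was not called in Vanillin minus Mock.

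Sult3a1 was near background, at 9.56, 9.56 and 8.89 in Vanillin, 4.89, 7.89 and 5.44 in Sham and 7.67, 8.06 and 8.89 in Mock. Every Vanillin array lay above every Sham array. The changes of Sult3a1 were -0.14 (SE 0.059, adjusted p = 0.075) in Sham minus Mock, 0.20 (SE 0.059, adjusted p = 0.0197) in Vanillin minus Sham and 0.066 (SE 0.059, adjusted p = 0.38) in Vanillin minus Mock. The Vanillin minus Sham call was lost with the replicate block on the 6 arrays compared (adjusted p = 0.0553) and without Sham 1 (0.0656), Sham 3 (0.0594) or Vanillin 2 (0.0589), in a range of 0.00415 to 0.125. Without Sham 2, Sult3a1 was called lower in Sham minus Mock (0.011, in a range of 0.011 to 0.278). Sult2a5 averaged 80.6 ± 7.47 in Vanillin, 90.4 ± 20.7 in Sham and 87 ± 4.30 in Mock (SD, n = 3 each), and Sult6b1 averaged 96.2 ± 11 in Vanillin, 101 ± 2.54 in Sham and 98 ± 5.42 in Mock. Neither of these was called in any comparison.

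The mu class genes, which lie side by side on chromosome 3 in the order Gstm5, Gstm7, Gstm6, Gstm3, Gstm2, Gstm1 and Gstm4, did not move as a block. Of the 7, 3 rose (42.9%, against 36.5% of all probes) and 2 fell (28.6%, against 23.2%) in Sham minus Mock. Vanillin minus Sham had 1 higher (14.3%, against 15.7%) and 5 lower (71.4%, against 32.2%). Vanillin minus Mock had 2 higher (28.6%, against 24.5%) and 3 lower (42.9%, against 26.2%). The mu genes are close paralogs that conjugate a wide range of electrophiles, and whether each probe reads its own gene alone is not given in the sources used here. Gstm7 had the largest increase of all members in Sham minus Mock, with intensities of 1559, 1372 and 1430.3 in Vanillin, 2260.1, 2041 and 2337 in Sham and 417, 411 and 419.9 in Mock. It rose by 2.36 (SE 0.067, adjusted p = 3.13e-09) in Sham minus Mock, fell by 0.60 (SE 0.067, adjusted p = 0.000102) in Vanillin minus Sham and rose by 1.76 (SE 0.067, adjusted p = 6.13e-08) in Vanillin minus Mock. The Vanillin arrays lay below the Sham arrays and well above the Mock arrays.

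Gstm5, the first gene of the cluster, had the same order of groups, with 6067, 6705 and 6769.9 in Vanillin, 8087, 8109 and 7883 in Sham and 4575, 4244 and 4420.3 in Mock. It rose by 0.86 (SE 0.057, adjusted p = 1.21e-06) in Sham minus Mock, fell by 0.30 (SE 0.057, adjusted p = 0.0022) in Vanillin minus Sham and rose by 0.56 (SE 0.057, adjusted p = 3.82e-05) in Vanillin minus Mock. Gstm2 ran the other way and was lowest in Sham. Its intensities were 2247, 2504 and 2552 in Vanillin, 1756, 1689.5 and 1677 in Sham and 5112, 4493 and 4769.7 in Mock, and it fell by 1.48 (SE 0.067, adjusted p = 9e-08) in Sham minus Mock, rose by 0.51 (SE 0.067, adjusted p = 0.000302) in Vanillin minus Sham and fell by 0.97 (SE 0.067, adjusted p = 3.02e-06) in Vanillin minus Mock. The adipocyte sum was also lowest in Sham (92920 to 96333 in Vanillin, 3264 to 3381 in Sham and 103979 to 105866 in Mock). The squamous, sebaceous, skeletal muscle and smooth muscle sums were lowest in Sham too. Smooth muscle markers summed to 46439 to 49726 in Vanillin, 40278 to 43016 in Sham and 93183 to 94576 in Mock. The part of these tissues in the result was not tested.

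Gstm3 and Gstm6 were lowest with vanillin. Gstm3 had 216, 247 and 268 in Vanillin, 461, 536 and 472 in Sham and 634, 593 and 632 in Mock, so that no groups overlapped. It fell by 0.33 (SE 0.085, adjusted p = 0.00828) in Sham minus Mock, fell by 0.97 (SE 0.085, adjusted p = 2.48e-05) in Vanillin minus Sham and fell by 1.30 (SE 0.085, adjusted p = 2.17e-06) in Vanillin minus Mock. Gstm6 had 844, 805 and 901 in Vanillin, 1565, 1289 and 1658 in Sham and 1399, 1326 and 1432 in Mock. Its Sham and Mock arrays overlapped, with a change of 0.11 (SE 0.092, adjusted p = 0.333) that was called only without Sham 2 (adjusted p = 0.026, in a range of 0.026 to 0.764), while the Vanillin arrays lay below both. Gstm6 fell by 0.81 (SE 0.092, adjusted p = 0.00012) in Vanillin minus Sham and fell by 0.70 (SE 0.092, adjusted p = 0.000211) in Vanillin minus Mock.

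Gstm1, the best known mu enzyme, had 259, 274 and 269 in Vanillin, 308, 335 and 308 in Sham and 261, 180.2 and 213 in Mock. It rose by 0.52 (SE 0.11, adjusted p = 0.00259) in Sham minus Mock, and the Vanillin arrays lay below the Sham arrays without a call, at -0.23 (SE 0.11, adjusted p = 0.109). With the replicate block on the 6 arrays compared the adjusted p of Vanillin minus Sham was 0.0236, without Mock 1 it was 0.0253 and without Mock 2 it was 0.0388, in a range of 0.0161 to 0.252. In Vanillin minus Mock the change was 0.29 (SE 0.11, adjusted p = 0.0537), called without Mock 1 (0.42, adjusted p = 0.00282) and smaller without Mock 2 (0.17, adjusted p = 0.153), the ends of the range over the alternatives. Gstm4 averaged 769.7 ± 38.7 in Vanillin, 949 ± 122 in Sham and 884 ± 25.2 in Mock (SD, n = 3 each). It was not called in Sham minus Mock (0.094), fell by 0.29 (SE 0.086, adjusted p = 0.0215) in Vanillin minus Sham and was not called in Vanillin minus Mock (-0.20). The Vanillin minus Sham change was -0.19 without Sham 3, and its call was lost without Vanillin 2 (adjusted p = 0.0751, in a range of 0.00646 to 0.0751), and Vanillin minus Mock was called without Sham 3 (0.0207, in a range of 0.00381 to 0.236).

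**Figure D4:**
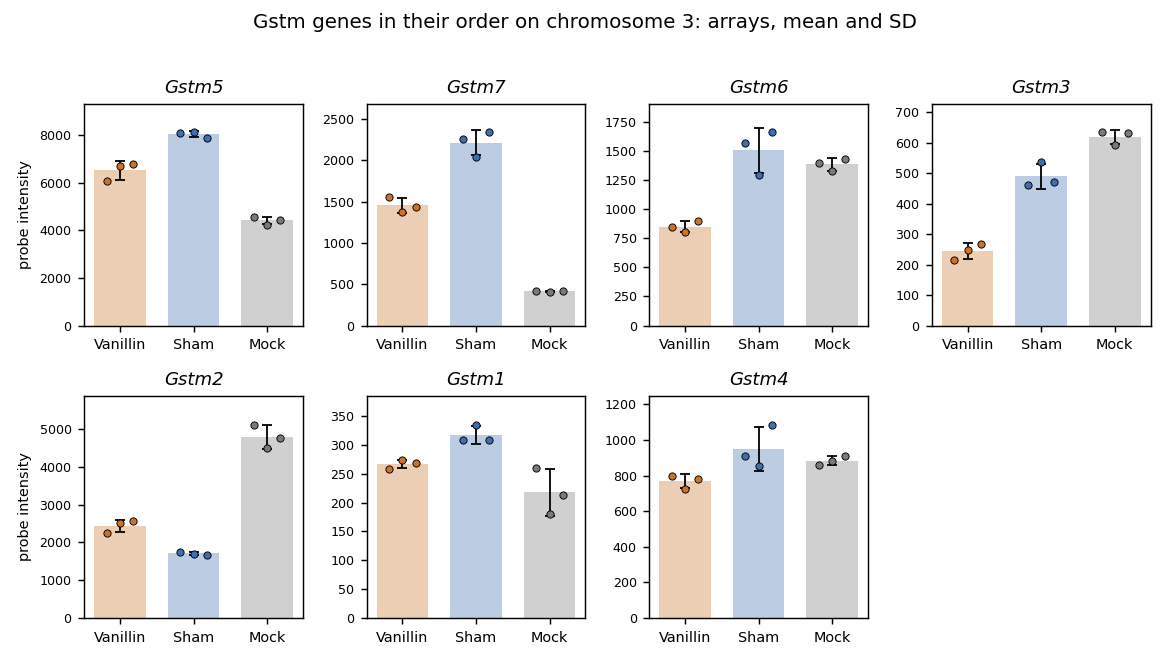
Probe intensity of the 7 mu class genes in each array (points), in the order they lie on chromosome 3, with the group mean (bar) and SD (error bar) for Vanillin, Sham and Mock from left to right. Gstm5 and Gstm7 were lowest in Mock, Gstm2 was lowest in Sham, and Gstm3 and Gstm6 were lowest in Vanillin.

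Of the alpha class, Gsta3 and Gsta4 changed in opposite directions after AOM/DSS. Gsta3, known in mouse liver for conjugating the reactive form of aflatoxin, had 3569.6, 3227 and 3085 in Vanillin, 5569, 5175 and 5404 in Sham and 2731, 2875 and 2483 in Mock. It rose by 1.00 (SE 0.074, adjusted p = 2.8e-06) in Sham minus Mock, fell by 0.71 (SE 0.074, adjusted p = 7e-05) in Vanillin minus Sham and rose by 0.29 (SE 0.074, adjusted p = 0.0102) in Vanillin minus Mock. Sham arrays were the highest, and the Vanillin arrays lay just above the Mock arrays. Gsta4, which clears the lipid peroxidation product 4-hydroxynonenal, had 27153, 28603 and 26464 in Vanillin, 39521, 38329 and 37953 in Sham and 65509, 60462 and 65509 in Mock. Its Mock arrays reached the top of the range, so the decreases of -0.72 (SE 0.053, adjusted p = 2.64e-06) in Sham minus Mock and -1.22 (SE 0.053, adjusted p = 1.57e-07) in Vanillin minus Mock may be underestimated. It fell by 0.49 (SE 0.053, adjusted p = 8.5e-05) in Vanillin minus Sham, where no array was at the top.

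The pi class enzyme Gstp1, a common marker of tumour tissue, was highest in Sham. Its intensities were 11649.6, 12365 and 12266 in Vanillin, 17197, 17025 and 16272 in Sham and 9715, 9187 and 9253 in Mock. It rose by 0.84 (SE 0.049, adjusted p = 5.22e-07) in Sham minus Mock, fell by 0.48 (SE 0.049, adjusted p = 6.52e-05) in Vanillin minus Sham and rose by 0.37 (SE 0.049, adjusted p = 0.000241) in Vanillin minus Mock. The 3 groups did not overlap. The goblet cell marker sum was likewise highest in Sham (240169 to 248951 in Vanillin, 317253 to 324489 in Sham and 254393 to 258622 in Mock). Of its 6 markers, 3 rose (50%, against 36.5% of all probes) and none fell (23.2% of all probes) in Sham minus Mock. Of the same 6, 4 fell in Vanillin minus Sham (66.7%, against 32.2%). Vanillin minus Mock had 1 higher (16.7%, against 24.5%) and 3 lower (50%, against 26.2%). The goblet cell sum in Vanillin lay below Mock, whereas Gstp1 in Vanillin lay above Mock. Clca1, in that sum, was near the top of the range in every group. The part of these markers in the result was not tested.

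Theta class enzymes, which act on small halogenated molecules, were mostly below Mock in both AOM/DSS groups. Of the 4, 3 fell (75%, against 23.2% of all probes) and 1 rose (25%, against 36.5%) in Sham minus Mock. All 4 fell in Vanillin minus Mock (100%, against 26.2%). Gstt1 had 1301, 1279.6 and 1363 in Vanillin, 1200.0, 1139 and 1085 in Sham and 3387, 3437 and 3375 in Mock. It fell by 1.56 (SE 0.052, adjusted p = 9.35e-09) in Sham minus Mock and fell by 1.36 (SE 0.052, adjusted p = 6.22e-08) in Vanillin minus Mock. The Vanillin arrays lay slightly above the Sham arrays, and Gstt1 rose by 0.20 (SE 0.052, adjusted p = 0.011) in Vanillin minus Sham, with an adjusted p of 0.0609 in the replicate block on the 6 arrays compared, in a range of 0.00557 to 0.0609. The smooth muscle sum had the same order of groups (46439 to 49726 in Vanillin, 40278 to 43016 in Sham and 93183 to 94576 in Mock), and its part in the result was not tested. Gstt4, a less studied theta enzyme, had 36, 31.9 and 33.6 in Vanillin, 36, 35.9 and 35.9 in Sham and 216, 218 and 216 in Mock. Both AOM/DSS groups lay under 50, where the size of a change depends on the pseudocount: Gstt4 fell by 2.16 (SE 0.046, adjusted p = 4.18e-10) in Sham minus Mock and fell by 2.22 (SE 0.046, adjusted p = 1.51e-09) in Vanillin minus Mock, against -1.49 and -1.52 with a pseudocount of 64. Its Vanillin and Sham arrays overlapped, with no call (-0.061).

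Gstt3 was lowest in Vanillin and highest in Mock. Its intensities were 8968, 8654 and 7650.2 in Vanillin, 12117, 12817 and 11237 in Sham and 15145, 16485 and 16378 in Mock, and it fell by 0.41 (SE 0.076, adjusted p = 0.00134) in Sham minus Mock, fell by 0.52 (SE 0.076, adjusted p = 0.000555) in Vanillin minus Sham and fell by 0.93 (SE 0.076, adjusted p = 9.76e-06) in Vanillin minus Mock. Gstt2 was highest in Sham and averaged 1590.4 ± 45.9 in Vanillin, 2352 ± 121 in Sham and 1828 ± 67 in Mock (SD, n = 3 each). It rose by 0.36 (SE 0.055, adjusted p = 0.000387) in Sham minus Mock, fell by 0.56 (SE 0.055, adjusted p = 4.95e-05) in Vanillin minus Sham and fell by 0.20 (SE 0.055, adjusted p = 0.0149) in Vanillin minus Mock. The last of these calls was lost without Mock 1 (adjusted p = 0.0537) or Vanillin 2 (0.0584), in a range of 0.00203 to 0.0584.

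Of the zeta, kappa and omega enzymes, Gstz1 and Gsto2 changed, Gstk1 was not called and Gsto1 could not be read. Gstz1, which isomerises maleylacetoacetate in tyrosine breakdown, had 2192, 2220.4 and 2125 in Vanillin, 1787, 1620.2 and 1781 in Sham and 2811, 2825 and 2744 in Mock. It was lowest in Sham: it fell by 0.69 (SE 0.052, adjusted p = 3.25e-06) in Sham minus Mock, rose by 0.33 (SE 0.052, adjusted p = 0.000806) in Vanillin minus Sham and fell by 0.36 (SE 0.052, adjusted p = 0.000409) in Vanillin minus Mock. Gstk1, the kappa enzyme of mitochondria and peroxisomes, had 7167, 7531 and 8044 in Vanillin, 7518, 7471 and 7763 in Sham and 7292, 6283 and 7376 in Mock. Its Sham arrays lay just above its Mock arrays and the other pairs of groups overlapped. It was not called, with changes of 0.12 (SE 0.073, adjusted p = 0.178) in Sham minus Mock, -0.0019 (SE 0.073, adjusted p = 0.987) in Vanillin minus Sham and 0.12 (SE 0.073, adjusted p = 0.201) in Vanillin minus Mock. Gsto1, a thiol transferase that also reduces dehydroascorbate, was at 64722, 63998 and 64389.7 in Vanillin, 65509, 64271 and 65113 in Sham and 65509, 63680.1 and 62929 in Mock. All 9 values lie at the top of the range, so no change of Gsto1 could be read. Gsto2, the other omega enzyme, averaged 172 ± 9.98 in Vanillin, 218 ± 25.9 in Sham and 278 ± 9.10 in Mock (SD, n = 3 each), and fell by 0.33 (SE 0.083, adjusted p = 0.00709) in Sham minus Mock, fell by 0.31 (SE 0.083, adjusted p = 0.0131) in Vanillin minus Sham and fell by 0.64 (SE 0.083, adjusted p = 0.000181) in Vanillin minus Mock.

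Mgst1, the membrane-bound transferase of the endoplasmic reticulum and outer mitochondrial membrane, had the largest increase of all members in Vanillin minus Sham. Its intensities were 7346, 7788 and 8771 in Vanillin, 2799, 2978 and 2860.4 in Sham and 7208, 7252 and 6863 in Mock. It fell by 1.30 (SE 0.069, adjusted p = 2.57e-07) in Sham minus Mock and rose by 1.46 (SE 0.069, adjusted p = 3.27e-07) in Vanillin minus Sham. The Vanillin arrays lay just above the Mock arrays, with an uncalled change of 0.16 (SE 0.069, adjusted p = 0.0806). It was called without Vanillin 1 (adjusted p = 0.025, in a range of 0.00732 to 0.234). The adipocyte sum was also lowest in Sham, with 92920 to 96333 in Vanillin, 3264 to 3381 in Sham and 103979 to 105866 in Mock, as was the sebaceous sum, although the adipocyte sum in Vanillin lay below Mock and Mgst1 did not. Their part in the result was not tested.

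Mgst2 and Mgst3, which can form leukotriene C4 from glutathione, were both highest in Sham. Mgst2 had 15465, 15555 and 15145 in Vanillin, 18233, 19675 and 17885 in Sham and 10621, 11107 and 11441 in Mock. It rose by 0.75 (SE 0.053, adjusted p = 2.08e-06) in Sham minus Mock, fell by 0.27 (SE 0.053, adjusted p = 0.00279) in Vanillin minus Sham and rose by 0.48 (SE 0.053, adjusted p = 7.19e-05) in Vanillin minus Mock, with the Vanillin arrays between the other groups. Mgst3 had 30488, 27515 and 27952 in Vanillin, 31508, 32156 and 33042 in Sham and 29510.0, 30546 and 30807 in Mock. The Sham arrays were the highest. Its changes were 0.09 (SE 0.053, adjusted p = 0.178) in Sham minus Mock and -0.081 (SE 0.053, adjusted p = 0.237) in Vanillin minus Mock. It fell by 0.17 (SE 0.053, adjusted p = 0.0264) in Vanillin minus Sham, but the adjusted p was 0.0523 with the replicate block, 0.0565 without Sham 2, 0.0749 without Sham 3, 0.0975 without Vanillin 2 and 0.0758 without Vanillin 3, in a range of 0.00475 to 0.0975.

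**Figure D5:**
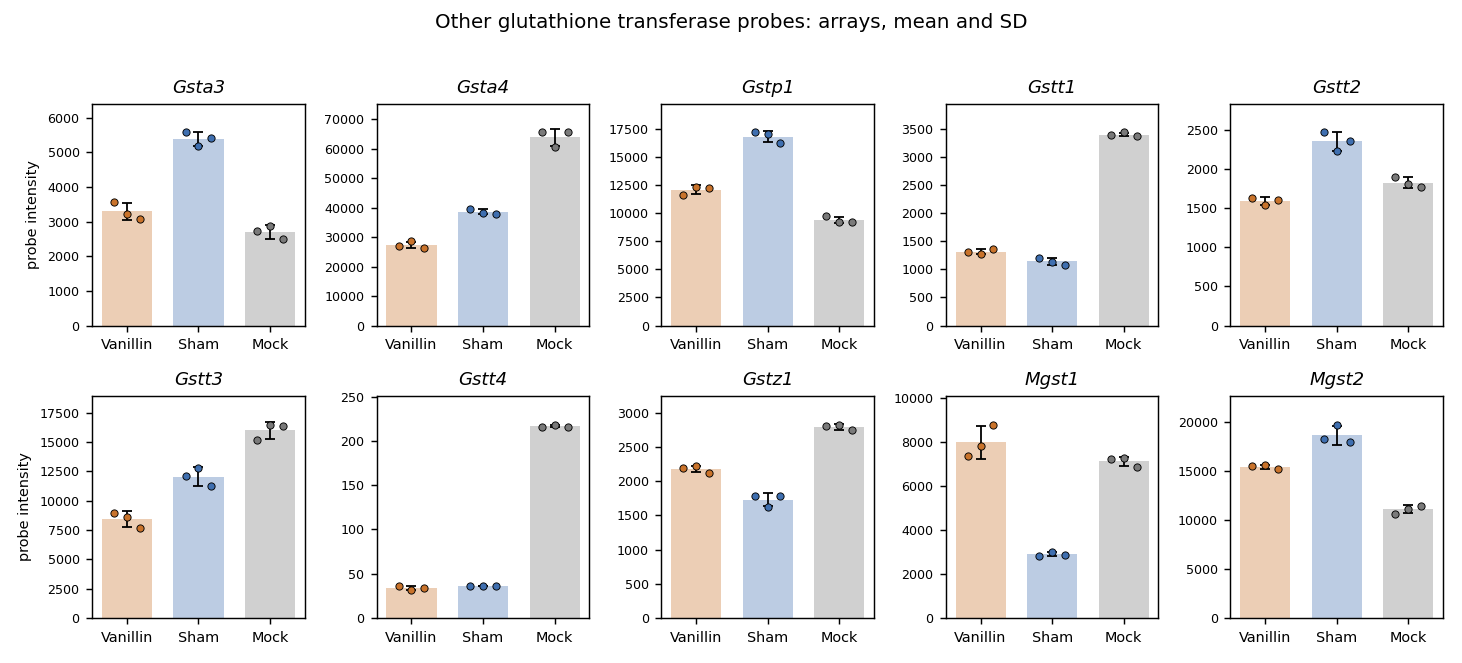
Probe intensity of 10 other glutathione transferase genes in each array (points), with the group mean (bar) and SD (error bar) for Vanillin, Sham and Mock from left to right. Mgst1 was low only in the Sham arrays, Gstt4 was under 50 in Vanillin and Sham, and Gsta3, Gstp1, Gstt2 and Mgst2 were highest in Sham.

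Among the UDP-glycosyltransferases, Ugt2b35 and Ugt2b34 were highest in Sham. Ugt2b35, of the family that glucuronidates steroids and phenols, had 459, 445 and 489 in Vanillin, 937, 944 and 904 in Sham and 385, 358 and 386 in Mock. It rose by 1.27 (SE 0.054, adjusted p = 5.54e-08) in Sham minus Mock, fell by 0.98 (SE 0.054, adjusted p = 1.05e-06) in Vanillin minus Sham and rose by 0.29 (SE 0.054, adjusted p = 0.00168) in Vanillin minus Mock. The Vanillin arrays lay just above the Mock arrays and far below the Sham arrays. Ugt2b34 had 5253, 5119.7 and 5216 in Vanillin, 6522, 6717 and 6749 in Sham and 5203, 5704 and 5940.4 in Mock. It rose by 0.25 (SE 0.056, adjusted p = 0.0041) in Sham minus Mock and fell by 0.36 (SE 0.056, adjusted p = 0.000796) in Vanillin minus Sham, while its Vanillin and Mock arrays overlapped. The uncalled Vanillin minus Mock change of -0.11 (SE 0.056, adjusted p = 0.137) was called without Mock 1 (adjusted p = 0.0317, in a range of 0.00549 to 0.399).

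Ugt8a uses UDP-galactose and makes the galactosylceramide of myelin. It had 412, 412 and 403 in Vanillin, 382, 369.9 and 398 in Sham and 657, 647 and 673 in Mock. The Mock arrays stood above both AOM/DSS groups: Ugt8a fell by 0.76 (SE 0.046, adjusted p = 6.66e-07) in Sham minus Mock and fell by 0.67 (SE 0.046, adjusted p = 2.9e-06) in Vanillin minus Mock. Its Vanillin arrays lay above the Sham arrays without a call, at 0.091 (SE 0.046, adjusted p = 0.137). The smooth muscle sum stood in the same order of groups, and its part in the result was not tested. Ugt2b1 averaged 235 ± 3.73 in Vanillin, 249 ± 19.7 in Sham and 275 ± 11.3 in Mock (SD, n = 3 each). It was called only in Vanillin minus Mock, where it fell by 0.21 (SE 0.063, adjusted p = 0.0206), and not without Mock 2 (adjusted p = 0.0632), Mock 3 (0.072) or Vanillin 3 (0.0578), in a range of 0.00178 to 0.072. Ugt2a3, whose human counterpart glucuronidates bile acids, averaged 12.6 ± 0.69 in Vanillin, 10.9 ± 4.54 in Sham and 14.1 ± 1.06 in Mock and was not called.

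Genes that make, carry, use or break down the conjugating molecules were set beside the enzymes. Of 11 glutathione genes, 5 rose (45.5%, against 36.5% of all probes) and 6 fell (54.5%, against 23.2%) in Sham minus Mock. Those that rose were Gclc, Gclm, Gss, Gsr and Slc7a11, of its making, regeneration or cystine import. Those that fell were Ggt1, Ggct, Chac1, Oplah, Anpep and Dpep1, of its breakdown and recycling. Vanillin minus Sham had 5 higher (45.5%, against 15.7%) and 3 lower (27.3%, against 32.2%). Vanillin minus Mock had 4 higher (36.4%, against 24.5%) and 6 lower (54.5%, against 26.2%). The median change over the 11, which mixes these roles, was -0.43 in Sham minus Mock, 0.15 in Vanillin minus Sham and -0.17 in Vanillin minus Mock. Gsr, which regenerates reduced glutathione, rose by 1.31 (SE 0.062, adjusted p = 1.19e-07) in Sham minus Mock and rose by 1.19 (SE 0.062, adjusted p = 4.9e-07) in Vanillin minus Mock. Slc7a11, the cystine importer, rose by 1.48 (SE 0.066, adjusted p = 8.03e-08) in Sham minus Mock, fell by 0.39 (SE 0.066, adjusted p = 0.00124) in Vanillin minus Sham and rose by 1.09 (SE 0.066, adjusted p = 1.31e-06) in Vanillin minus Mock. Ggct, of the glutathione breakdown cycle, fell by 1.44 (SE 0.059, adjusted p = 4.31e-08) in Sham minus Mock and rose by 1.27 (SE 0.059, adjusted p = 3.04e-07) in Vanillin minus Sham, the same directions as Mgst1.

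Of 8 genes for the sulfate donor, 5 rose (62.5%, against 36.5% of all probes) and 2 fell (25%, against 23.2%) in Sham minus Mock. None rose (15.7% of all probes) and 4 fell (50%, against 32.2%) in Vanillin minus Sham. Vanillin minus Mock had 4 higher (50%, against 24.5%) and 2 lower (25%, against 26.2%). The 8 include Tpst1 and Tpst2, which use PAPS and do not supply it, and Tpst2 is among those higher than Mock in both comparisons. Papss2, which makes PAPS, rose by 0.98 (SE 0.057, adjusted p = 4.94e-07) in Sham minus Mock, fell by 0.60 (SE 0.057, adjusted p = 3.86e-05) in Vanillin minus Sham and rose by 0.38 (SE 0.057, adjusted p = 0.000457) in Vanillin minus Mock. The 4 called Sult1 genes, whose enzymes use PAPS, were below Mock in both AOM/DSS groups. Of 5 genes for UDP-glucuronate, 2 rose (40%, against 36.5% of all probes) and 3 fell (60%, against 23.2%) in Sham minus Mock. None rose (15.7% of all probes) and 2 fell (40%, against 32.2%) in Vanillin minus Sham. Vanillin minus Mock had 1 higher (20%, against 24.5%) and 3 lower (60%, against 26.2%). Ugdh, which makes UDP-glucuronate, fell by 0.50 (SE 0.048, adjusted p = 1.75e-05) in Sham minus Mock, fell by 0.13 in Vanillin minus Sham and fell by 0.63 in Vanillin minus Mock.

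Export pumps, for conjugates and for other compounds, were split. Of 8 such genes, 4 rose (50%, against 36.5% of all probes) and 4 fell (50%, against 23.2%) in Sham minus Mock. Vanillin minus Sham had 2 higher (25%, against 15.7%) and 6 lower (75%, against 32.2%). Vanillin minus Mock had 4 higher (50%, against 24.5%) and 2 lower (25%, against 26.2%). The 8 include the P-glycoprotein genes Abcb1a and Abcb1b, which are not mainly conjugate pumps. Abcc4, an exporter of conjugated anions, averaged 4413 ± 70.4 in Vanillin, 7298 ± 327 in Sham and 1436 ± 75.5 in Mock (SD, n = 3 each), and rose by 2.33 (SE 0.056, adjusted p = 9.74e-10) in Sham minus Mock and fell by 0.72 (SE 0.056, adjusted p = 9.96e-06) in Vanillin minus Sham. Abcb1a, the P-glycoprotein pump, averaged 427 ± 23.8 in Vanillin, 673 ± 33.7 in Sham and 2308 ± 77.6 in Mock, and fell by 1.75 (SE 0.06, adjusted p = 1.14e-08) in Sham minus Mock and fell by 0.64 (SE 0.06, adjusted p = 3.57e-05) in Vanillin minus Sham. Its groups stood in the order of the 4 called Sult1 genes, with Vanillin lowest and Mock highest.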

How the data were processed

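Colon RNA was amplified and labelled with Cy5 per the labels' protocols. The deposited values are probe intensities on a linear scale. They appear to have been quantile normalized before deposit. This is inferred from the values alone, since the sorted log2 values of the 9 arrays differ by at most 0.109. The submitters' processing notes name limma, with no role or version. What scanner, background correction or probe filter was used is not given in the sources used here. Between 3 and 14 values per array were negative and were set to 0. The median intensity was 319.6 to 320.1 per array. Members were chosen by symbols of the platform's probe table, which names 1 gene for 20377 probes and none for 6046. The members and gene lists were chosen with earlier results of these data known.

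Values were taken as log2(intensity + 16) without further normalization, because the arrays' quartiles differed by at most 0.0128. Group means were estimated from the 9 arrays together in limma 3.58.1 under R 4.3.3 (functions lmFit and eBayes, two-sided, 6 residual and 2.69 prior degrees of freedom, median residual SD 0.0895). Benjamini-Hochberg adjustment ran over 26423 probes within each comparison. The scripts were tested on simulated data. Other pseudocounts, a filter on dim probes, a fit on the 6 arrays compared, array weights, an intensity trend, repeated quantile normalization, the replicate number as a block and leaving out each array were tried. A block fit on the 6 arrays compared was added after the data were seen. Same-numbered Vanillin and Sham arrays deviated together (correlations of 0.169, 0.126 and 0.201), so the numbers were taken to pair these arrays, a hint from the data only, and block values stand beside the calls they change.

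Values for every array are given for the 8 largest increases and decreases per comparison among called members without overlap, for the 10 brightest members and for genes named in a list. Genes of other lists are named where they have 1 of the 3 smallest p-values in a comparison, and the brightest probe stands for a gene that has several. Promoter sequences are those of RefSeq, GRCm38.p6.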

Additional observations from a re-analysis of the deposited data

How the results depend on the processing

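Over all alternatives run, the number of members called higher and lower was 10 to 12 and 15 to 19 in Sham minus Mock, 6 to 8 and 19 to 22 in Vanillin minus Sham, and 6 to 9 and 18 to 23 in Vanillin minus Mock. Each stayed within 1.5 times its reported count, and no called member changed direction. Without the dimmest 30% of probes, 31 of the 39 members were tested. With the replicate number as a block, Sham minus Mock gave 11 members higher and 17 lower, Vanillin minus Sham 7 and 20, and Vanillin minus Mock 6 and 20. The block ended the Vanillin minus Sham calls of Mgst3 and Sult2a7 and changed no other call. With the block on the 6 arrays compared, 6 members were called higher and 21 lower in Vanillin minus Sham. Same-numbered arrays deviated apart in the other comparisons (correlations of -0.117 to -0.0162 for Sham minus Mock and -0.288 to -0.103 for Vanillin minus Mock), and 0 of 6 arrays correlated best with their own number there, against 6 of 6 in Vanillin minus Sham.

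Calls on Gsto1 and the Mock level of Gsta4 are limited by the top of the intensity range, and those on Sult1e1, Sult3a1, Gstt4 and Ugt2a3 by low signal. With a pseudocount of 64 the Vanillin minus Sham calls of Sult2a7 (0.31, adjusted p = 0.0777) and Sult3a1 (0.066, adjusted p = 0.125) were lost. Array weights added 8 calls among the 117 changes of members and ended none. Signal over background is not known beyond these intensities, and the cause of each changed call was not tested.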

Other observations

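Genes that remove conjugates and regulators of conjugating enzymes were also measured. Of 4 deconjugating enzymes, 2 rose (50%, against 36.5% of all probes) and 1 fell (25%, against 23.2%) in Sham minus Mock. Vanillin minus Sham had 1 higher (25%, against 15.7%) and 2 lower (50%, against 32.2%). Vanillin minus Mock had 1 higher (25%, against 24.5%) and 1 lower (25%, against 26.2%). Gusb, the lysosomal beta-glucuronidase, averaged 5386 ± 136 in Vanillin, 7022 ± 269 in Sham and 1804 ± 73.5 in Mock (SD, n = 3 each), and rose by 1.95 (SE 0.052, adjusted p = 2.12e-09) in Sham minus Mock and fell by 0.38 (SE 0.052, adjusted p = 0.00035) in Vanillin minus Sham. Arsa, a lysosomal sulfatase, fell by 0.81 (SE 0.05, adjusted p = 7.47e-07) in Sham minus Mock and rose by 0.64 (SE 0.05, adjusted p = 1.03e-05) in Vanillin minus Sham.

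Of 10 regulators, 4 rose (40%, against 36.5% of all probes) and 3 fell (30%, against 23.2%) in Sham minus Mock. Vanillin minus Sham had 3 higher (30%, against 15.7%) and 6 lower (60%, against 32.2%). Vanillin minus Mock had 3 higher (30%, against 24.5%) and 5 lower (50%, against 26.2%). Cdx2, the intestinal homeobox factor and also one of the colon epithelium markers, averaged 2783 ± 106 in Vanillin, 4265 ± 187 in Sham and 473 ± 17.5 in Mock, and rose by 3.13 (SE 0.055, adjusted p = 1.2e-10) in Sham minus Mock and fell by 0.61 (SE 0.055, adjusted p = 2.69e-05) in Vanillin minus Sham. Rxra, the shared partner of many nuclear receptors, was lowest in Sham, like Mgst1 and Sult2b1: it fell by 1.57 (SE 0.046, adjusted p = 4.03e-09) in Sham minus Mock and rose by 0.80 (SE 0.046, adjusted p = 1.35e-06) in Vanillin minus Sham. Ppara, the fatty acid receptor, fell by 1.73 (SE 0.056, adjusted p = 7.81e-09) in Sham minus Mock and rose by 0.58 (SE 0.056, adjusted p = 4.09e-05) in Vanillin minus Sham on its brighter probe, while its other probe was not called.

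Symbols updated through RefSeq names add 2 probes that the platform's symbols did not place among the members. Sult2a8 averaged 5025 in Vanillin, 5099.8 in Sham and 5162 in Mock, and Sult6b2 averaged 44.3 in Vanillin, 42.4 in Sham and 32.0 in Mock. These are means of 3 arrays, and neither probe was called in any comparison.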
